A study of Mus musculus with 9 samples.

Results

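The transforming growth factor beta (TGF-beta) genes described here are the 3 ligands Tgfb1, Tgfb2 and Tgfb3, the 3 receptors Tgfbr1, Tgfbr2 and Tgfbr3, and the 4 latent TGF-beta binding proteins Ltbp1, Ltbp2, Ltbp3 and Ltbp4. They were taken by gene symbol, and all 10 were found among the 24138 loci of the expression table. Poly(A) RNA from whole mouse kidneys at E15.5 was sequenced in 9 libraries, 3 of each genotype, from embryos of both sexes on a C57Bl6/J background out of 3 separate crosses. MUT kidneys were Foxd1GC/+;Ntn1fl/fl and HET kidneys were Foxd1GC/+;Ntn1fl/+, while WT kidneys were Ntn1fl/fl without Cre. Every library therefore came from an embryo with at least 1 floxed Ntn1 allele. The Foxd1 GFP-Cre knock-in, present in HET and MUT, inactivates 1 Foxd1 allele and recombines Ntn1, which encodes the secreted guidance cue netrin 1, only in Foxd1+ stromal progenitors and their descendants. MUT versus HET thus compared loss of both stromal Ntn1 alleles with loss of 1 at equal Foxd1 dosage, and both comparisons with WT also carried the Foxd1 allele. Values are FPKM (fragments per kilobase of transcript, scaled to the fragments mapped in the library), which can be compared between genes because they are per length.

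TGF-beta ligands are secreted as inactive complexes. Inside the cell each propeptide is cleaved by furin and stays wrapped around the mature dimer, and LTBP1, LTBP3 and LTBP4 bind this complex and tether it to fibrillin microfibrils in the matrix, from which integrins and proteases release it. The free ligand binds the type II receptor TGFBR2, often presented by the co-receptor TGFBR3 (betaglycan), and TGFBR2 phosphorylates the type I receptor TGFBR1 (ALK5), which activates SMAD2 and SMAD3. In the kidney the pathway is best known for driving collagen deposition by interstitial cells and pericytes and for its part in smooth muscle and vessel maturation.

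The libraries held the cell types that the labelled tissue should contain. Summed over 7 stromal markers the level was 512 to 649 FPKM, over 6 nephron progenitor markers 233 to 349 FPKM, and over 7 ureteric markers 212 to 272 FPKM. Ntn1 itself was 17.8 to 28.9 FPKM in WT, 12.0 to 16.5 in HET and 10.8 to 16.5 in MUT, and Foxd1 was 25.8 to 33.7 in WT, 20.2 to 21.7 in HET and 22.5 to 24.8 in MUT. Loss of the floxed Ntn1 segment in stroma was thus not visible as a separation of MUT from HET in these whole-gene values. Library HET-2 stood apart by its liver markers, which summed to 611 FPKM against 25.7 to 49.8 FPKM in the other 8 libraries. Read depth is unknown, since the table gives no counts, so no counting error can be attached to an FPKM value. Because whole kidneys were sequenced, fewer cells of a type and less RNA per cell cannot be told apart.

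Levels of the 10 genes spanned a wide range and kept nearly the same order in every library. Tgfbr1 had the highest mean over the 9 libraries at 40.6 FPKM, followed by Ltbp1 at 26.8, Tgfbr2 at 21.5, Ltbp4 at 20.7, Tgfb1 at 14.7, Ltbp3 at 12.9, Tgfb3 at 10.7, Tgfbr3 at 7.24, Tgfb2 at 4.50 and Ltbp2 at 0.118 FPKM. Tgfbr2 and Ltbp4 could not be ordered, with Tgfbr2 the higher in 5 of 9 libraries. Tgfb1 exceeded Ltbp3, and Ltbp3 exceeded Tgfb3, in 8 of 9 libraries, whereas the other neighbours kept their order in all 9. Over all libraries the ranges of neighbours were separate only between Tgfbr3 and Tgfb2 and between Tgfb2 and Ltbp2. Ltbp2, the member of its family that does not bind latent TGF-beta, was listed at 0.0748 to 0.168 FPKM, where differences between libraries cannot be read.

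**Figure D1:**
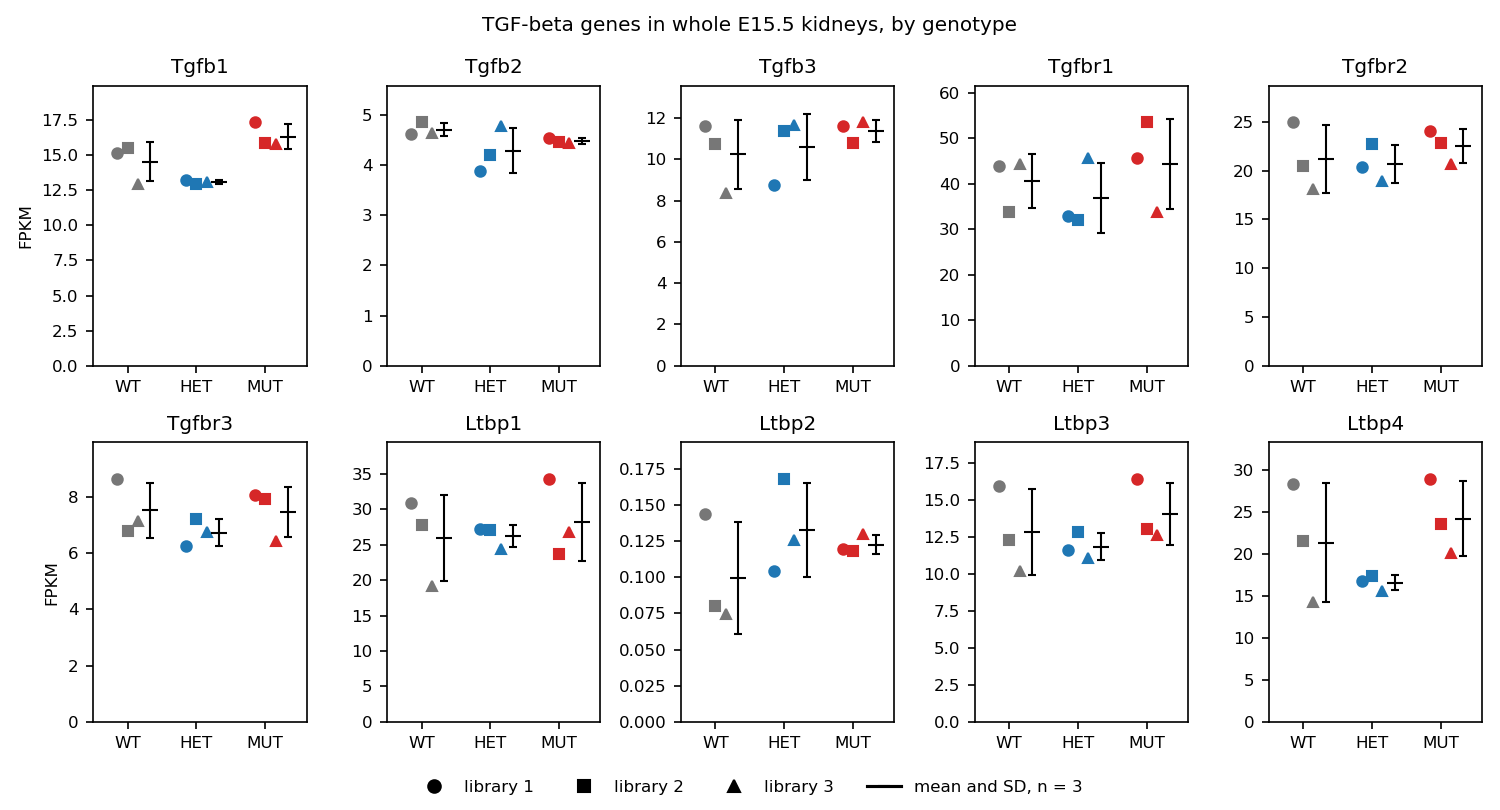
FPKM of the 10 TGF-beta genes in each of the 9 libraries, 1 panel a gene, with genotype on the x axis and FPKM from 0 on the y axis; each marker is 1 library and the bar beside it is the mean ± SD of 3 libraries. Tgfb1 (15.8 to 17.3 FPKM in MUT against 13.0 to 13.2 in HET) and Ltbp4 (20.1 to 28.9 against 15.6 to 17.4) are the panels in which MUT lies wholly above HET.

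No TGF-beta gene passed the test between any genotypes, and the values below are read with that in mind. Of 10081 genes tested in MUT versus HET with limma, at a Benjamini-Hochberg adjusted p under 0.05, 0 were called (0% of genes tested), while 636 had an unadjusted p under 0.05. Of 10096 genes in MUT versus WT 0 were called (0%; 65 unadjusted), and of 10105 in HET versus WT 0 were called (0%; 108 unadjusted). A gene was tested where its mean was at least 5 FPKM in either genotype, which admitted 8 of the 10 members and left out Tgfb2 and Ltbp2. Fold changes are differences in mean log2(FPKM + 1), which understate the change of low genes.

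Within that limit the members leaned 1 way in MUT versus HET. The log2 fold change was above 0 for 8 of 8 members tested, against 45.9% of all genes tested, and their median was 0.18, against -0.02 for all genes. Libraries of the genotypes did not overlap, with MUT above HET, for 2 of the 8 (Tgfb1 and Ltbp4), a state shared by 5.19% of all genes tested. The same 2 were the members with an unadjusted limma p under 0.05 and higher MUT values, as were 3.68% of all genes. With so few members these shares describe the genes and were not tested.

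Among the ligands, Tgfb1, the isoform most tied to fibrosis and immune control, was 17.3, 15.8 and 15.8 FPKM in MUT-1, MUT-2 and MUT-3, 13.2, 13.0 and 13.1 FPKM in HET-1, HET-2 and HET-3, and 15.2, 15.52 and 12.9 FPKM in WT-1, WT-2 and WT-3. Each MUT library was above every HET and every WT library, the nearest WT library, WT-2, by little, and the HET libraries lay close together (SD 0.132 FPKM, n = 3). The MUT mean was 1.25 times the HET mean, a log2 fold change of 0.30 (SE 0.095) with an limma adjusted p of 0.738 and an unadjusted p of 0.0104, the 89th smallest of the genes tested. Against WT the log2 fold change was 0.16 (SE 0.12, limma adjusted p = 1.00), and 0.082 without WT-3, 0.064 with GC correction and 0.061 with GC and length correction. MUT lay above WT without overlap for 1 of 8 members (Tgfb1), against 1.32% of all genes.

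Tgfb3, the isoform known from palate fusion and lung development, was 11.6, 10.8 and 11.8 FPKM in MUT, 8.76, 11.4 and 11.6 in HET and 11.6, 10.7 and 8.36 in WT. HET-1 and WT-3 were the low libraries and the genotypes overlapped. In MUT versus HET the log2 fold change of 0.10 (SE 0.12, limma adjusted p = 0.834) became -0.02 without HET-1. The Tgfb3 locus overlaps Ttll5 on the opposite strand, and whether reads were counted by strand is not given in the sources used here.

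Tgfb2, whose loss in mice disturbs heart, skeletal and urogenital development, was 4.54, 4.47 and 4.44 FPKM in MUT, 3.89, 4.20 and 4.78 in HET and 4.62, 4.85 and 4.65 in WT. MUT libraries lay inside the HET range and just below every WT library, as did 1.92% of the 12984 loci with a mean of at least 1 FPKM. With the minimum lowered to 1 FPKM the log2 fold change was 0.06 (SE 0.11, limma adjusted p = 0.904) in MUT versus HET and -0.06 (SE 0.11, limma adjusted p = 1.00) in MUT versus WT.

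In the mix of ligand transcripts the Tgfb2 share was lowest in MUT by a small margin, and the Tgfb1 and Tgfb3 shares overlapped in all 3 comparisons. Tgfb2 made up 13.6%, 14.4% and 13.9% of summed ligand FPKM in MUT, below each HET (14.7% to 16.2%) and each WT library (14.7% to 17.9%). The ratio of Tgfb1 to Tgfb2 FPKM was accordingly 3.54 to 3.81 in MUT, 2.74 to 3.40 in HET and 2.78 to 3.29 in WT. The 2 transcripts differ in GC content (62.5% and 46.9%), and its part in this ratio was not tested. Summed ligand FPKM was 31.1 to 33.5 in MUT and 25.9 to 29.5 in HET without overlap, and 25.9 to 31.4 in WT, which overlapped MUT. With 3 libraries against 3, an exact two-sided permutation test of such a ratio cannot give a p below 0.1, so none was computed.

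**Figure D2:**
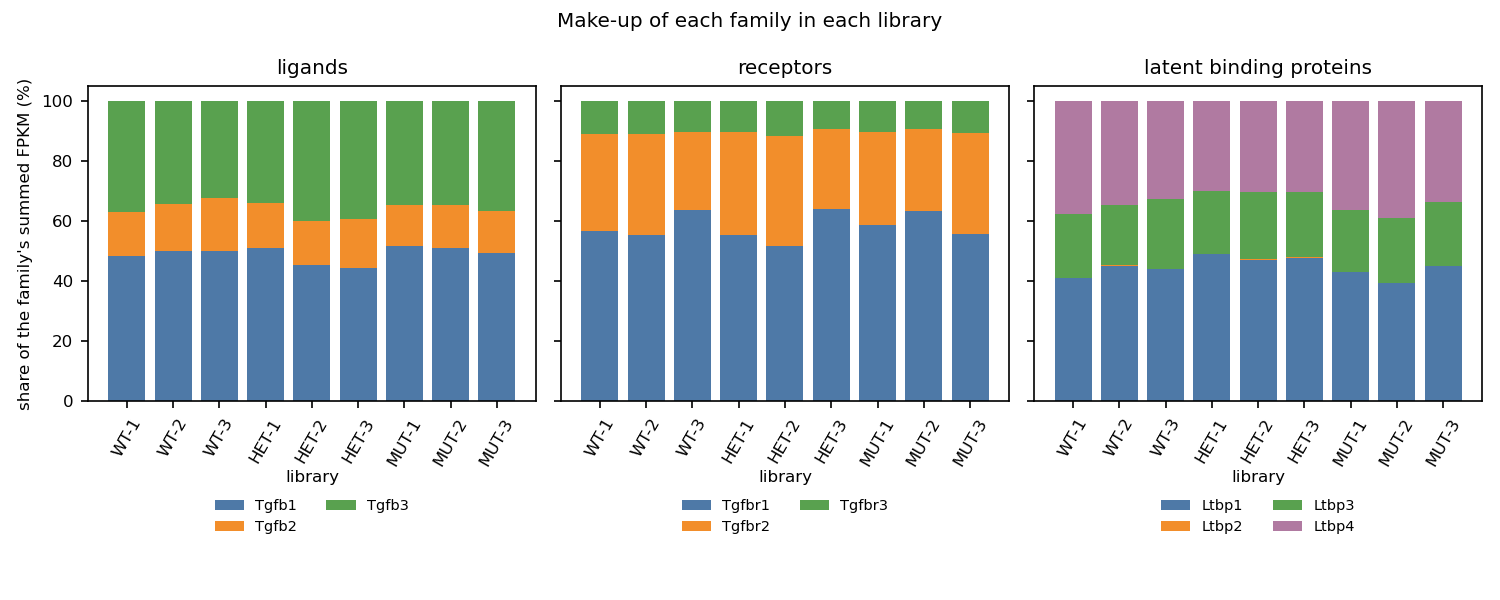
Share of each gene in the summed FPKM of its family (y axis, percent) in each of the 9 libraries (x axis), for ligands, receptors and latent binding proteins; stacked bars start at 0 and reach 100%. Ltbp4 takes 30.1% to 30.5% of the latent binding protein total in HET and 33.7% to 39.0% in MUT, and Tgfb2 takes 13.6% to 14.4% of the ligand total in MUT.

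The receptors varied more between libraries than between genotypes. Tgfbr1, the kinase that phosphorylates SMAD2 and SMAD3, was 45.7, 53.4 and 33.8 FPKM in MUT, 32.9, 32.0 and 45.6 in HET and 43.9, 33.8 and 44.2 in WT. Each genotype held both high and low libraries, and the ranges overlapped in all 3 comparisons. The log2 fold change in MUT versus HET was 0.25 (SE 0.18, limma adjusted p = 0.758), with a 95% interval from -0.14 to 0.65. It was 0.11 without MUT-2, 0.17 without HET-2, 0.41 without HET-3 and 0.43 without MUT-3, and 0.12 after correction for GC content and length.

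Tgfbr2, the ligand-binding kinase, was 24.1, 22.9 and 20.7 FPKM in MUT, 20.4, 22.8 and 18.9 in HET and 24.95, 20.5 and 18.2 in WT. Its values overlapped throughout, and the log2 fold change of 0.12 in MUT versus HET (SE 0.11, limma adjusted p = 0.788) was -0.0055 once FPKM were corrected for GC content and transcript length. Tgfbr3, the co-receptor that presents TGFB2 in particular, was 8.06, 7.91 and 6.44 FPKM in MUT, 6.24, 7.21 and 6.74 in HET and 8.64, 6.79 and 7.13 in WT. Here too the genotypes overlapped, with a log2 fold change of 0.13 (SE 0.13, limma adjusted p = 0.798) in MUT versus HET. The ratio of Tgfbr1 to Tgfbr2 FPKM ranged from 1.41 to 2.41 in HET, which spanned the values of MUT (1.64 to 2.34) and nearly those of WT (1.65 to 2.43).

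Ltbp4, which binds latent TGFB1 and is needed for elastic fibre assembly, had the largest difference of any member. It was 28.9, 23.5 and 20.1 FPKM in MUT, 16.7, 17.4 and 15.6 in HET and 28.3, 21.5 and 14.2 in WT. All MUT libraries were above all HET libraries, whereas WT spread from the lowest to nearly the highest value of the 9. The MUT mean was 1.46 times the HET mean, a log2 fold change of 0.51 (SE 0.13, 95% interval 0.22 to 0.79), the 14th smallest unadjusted p of the genes tested (0.00262), yet with an limma adjusted p of 0.738. Without HET-2, the library with liver transcripts, it was 0.54, and over all omissions of 1 library it stayed between 0.37 and 0.63. The correction for GC content and length brought it to 0.29.

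Against WT the same gene gave 0.21 (SE 0.22, limma adjusted p = 1.00) in MUT, which became -0.04 without WT-3, and -0.30 (SE 0.20, limma adjusted p = 0.998) in HET, which was -0.075 without WT-1 and -0.55 without WT-3. The separation of Ltbp4 thus held between HET and MUT and not against WT, and 1 library, WT-3, decided the sign of the difference between MUT and WT.

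Ltbp3, which binds latent ligand and is linked to bone and tooth development, was 16.4, 13.0 and 12.6 FPKM in MUT, 11.6, 12.8 and 11.1 in HET and 16.0, 12.3 and 10.2 in WT. MUT-3 lay below HET-2, so the groups overlapped, and the log2 fold change of 0.22 (SE 0.12, limma adjusted p = 0.738) was 0.03 after the correction for GC content and length. Ltbp1, the widely expressed founding member of the family, was 34.3, 23.6 and 26.8 FPKM in MUT, 27.2, 27.1 and 24.4 in HET and 30.8, 27.8 and 19.1 in WT. MUT held both the highest of the 9 values and one below every HET library, and the log2 fold change of 0.09 in MUT versus HET (SE 0.14, limma adjusted p = 0.877) was -0.06 without MUT-1 and -0.012 after the same correction.

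Set against its relatives, Ltbp4 separated HET from both other genotypes. It made up 30.1%, 30.2% and 30.5% of summed LTBP FPKM in HET, 36.3%, 39.0% and 33.7% in MUT and 37.6%, 34.8% and 32.6% in WT. Ltbp1 took the opposite place, at 47.1% to 48.9% in HET, 39.2% to 44.9% in MUT and 41.0% to 45.1% in WT. The ratio of Ltbp4 to Ltbp1 FPKM was 0.614 to 0.641 in HET, 0.752 to 0.994 in MUT and 0.743 to 0.918 in WT, so that HET was the lowest genotype without overlap while MUT and WT overlapped. Ltbp4 FPKM by itself overlapped between HET and WT. The Ltbp4 and Ltbp1 transcripts differ in GC content (62.2% and 52.7%), and its part in this ratio was not tested. As for the ligands, 3 libraries against 3 allow no permutation p below 0.1. How often ratios of other genes separate the genotypes was not computed, here or for the ligands. Summed LTBP FPKM was 59.7 to 79.8 in MUT and 51.2 to 57.5 in HET, and 43.6 to 75.3 in WT.

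**Figure D3:**
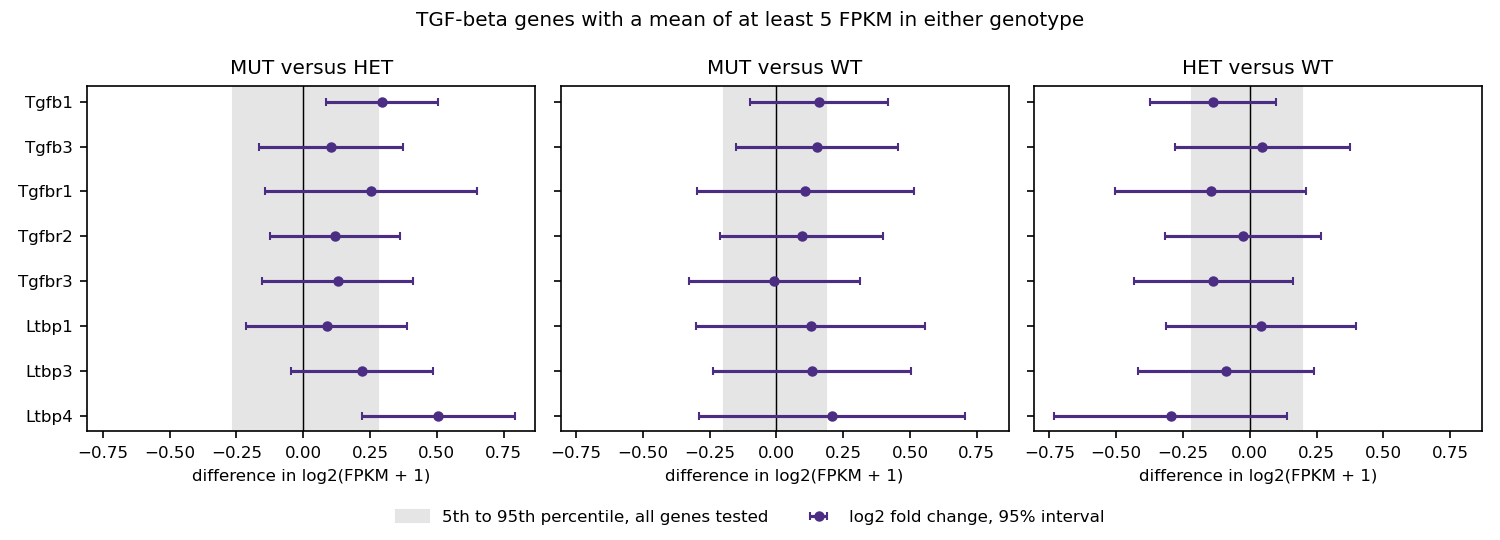
Log2 fold changes (points; x axis, difference in mean log2(FPKM + 1)) with 95% intervals (bars) of the 8 TGF-beta genes tested in 3 comparisons of 3 libraries against 3; the grey band runs from the 5th to the 95th percentile of all genes tested. In MUT versus HET all 8 points lie to the right of 0 and Tgfb1 and Ltbp4 lie beyond the band, while HET versus WT has 6 of 8 points to the left of 0.

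Against WT the 8 members did not share 1 direction in either comparison. In MUT versus WT 7 were higher and Tgfbr3 lower (-0.01, SE 0.14), with a median log2 fold change of 0.13, and 48.7% of all genes were above 0. Without WT-3 only 3 of 8 were higher. In HET versus WT 2 were higher and 6 lower, with a median of -0.11, and 52.4% of all genes were above 0. No member had HET above WT without overlap, a state of 2.15% of all genes, and none had HET below WT without overlap, a state of 1.06%. The limma adjusted p was 1.00 for all 8 members in MUT versus WT and 0.998 for all 8 in HET versus WT. These comparisons share libraries, so their fold changes are not independent of one another.

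Several members deviated together in single libraries. All 8 members tested were above their own mean in WT-1 and in MUT-1, 1 of 8 was above it in WT-3 and in HET-1, and WT-3 held the lowest value of 6 of the 8. Libraries also differed in the balance of long and short and of GC-rich and GC-poor transcripts, whose part in these deviations was not tested beyond the corrections below. The longest 25% of genes differed from the shortest 25% by 0.34 (WT-1), -0.14 (WT-2), -0.015 (WT-3), -0.25 (HET-1), -0.23 (HET-2), 0.094 (HET-3), 0.37 (MUT-1), 0.019 (MUT-2) and -0.14 (MUT-3) on the log2 scale. The GC-richest 25% differed from the GC-poorest 25% by -0.35 in WT-3. Transcripts of Tgfb1, Ltbp4 and Ltbp3 are GC-rich, at 62.5%, 62.2% and 61.5%, each above at least 97.7% of genes, and that of Tgfbr1 is GC-poor at 41.0%. Those of Tgfbr1, Tgfbr2, Tgfbr3, Ltbp1, Ltbp3 and Ltbp4 are 5190 to 8092 bases long. They thus fall in the longest 25% of genes (4591.5 bases or more), while those of Tgfb1 and Tgfb3 are 2175 and 3383 bases. In HET the GC-richest 25% of genes was 0.15 (HET-1) and 0.24 (HET-2) above the GC-poorest 25%, and in HET-3 the difference was -0.19, against 0.10, -0.08 and 0.04 in MUT. A correction for GC content alone gave 0.43 for Ltbp4 and 0.21 for Tgfb1 in MUT versus HET. With GC content and length corrected together 6 of 8 members were above 0, the exceptions being Tgfbr2 at -0.0055 and Ltbp1 at -0.012.

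**Figure D4:**
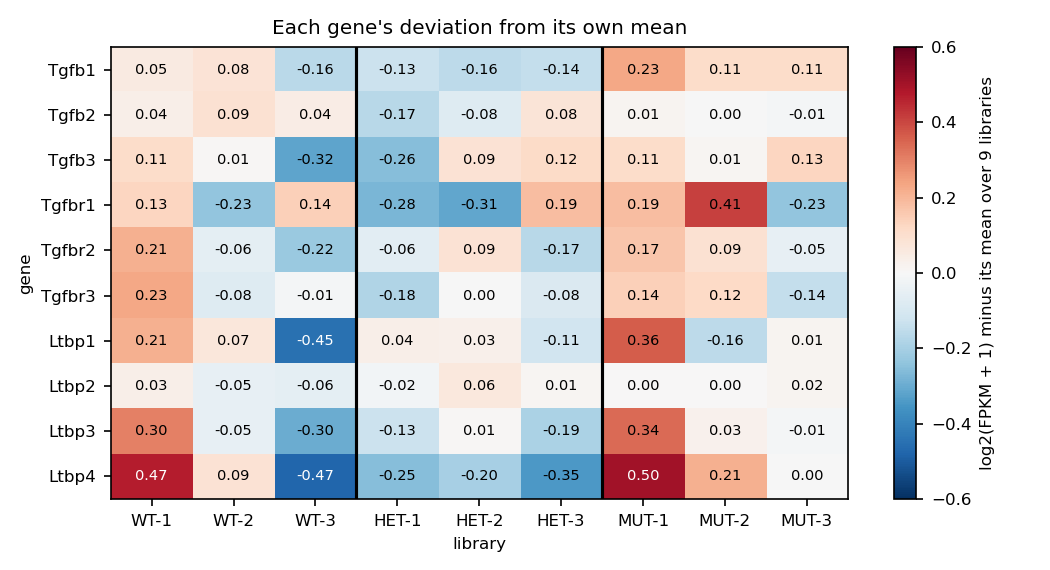
Deviation of each TGF-beta gene (rows) from its own mean over the 9 libraries (columns, grouped by genotype), in log2(FPKM + 1); red is above and blue below the mean. WT-1 and MUT-1 are red for nearly every gene and WT-3 is mostly blue, and Ltbp4 runs from -0.47 in WT-3 to 0.50 in MUT-1.

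Marker genes of other cell types also differed between MUT and HET, and their part in the differences of the members was not tested. The 7 stromal markers, all detected in every library, summed to 621 to 649 FPKM in MUT, 555 to 583 in HET and 512 to 614 in WT. Without Col1a1, itself a TGF-beta target, the other 6 summed to 380 to 435 FPKM in MUT, 382 to 439 in HET and 394 to 404 in WT and overlapped. Single stromal markers with MUT above HET without overlap were 2 of 7, Col1a1 and Foxd1, against 5.19% of all genes tested. Of the 6 smooth muscle markers 4 had MUT below HET without overlap, against 4.5% of all genes tested. HET also lay above WT without overlap for 4 of the 6, against 2.15%, and MUT lay below WT without overlap for 0. Cnn1, in both counts, was under the 5 FPKM minimum and is not among the genes behind these shares. Actg2 and Myh11 passed that minimum only through HET, the genotype in which they were highest. Among those with MUT below HET, Actg2 was 4.06 to 5.55 FPKM in MUT, 8.24 to 16.3 in HET and 3.16 to 4.79 in WT. Myh11 was 3.16 to 4.77, 5.61 to 7.33 and 2.54 to 4.59 FPKM in the same order. The 6 summed to 113 to 144 FPKM in MUT, 140 to 192 in HET and 117 to 141 in WT. The 7 endothelial markers, also all detected, summed to 212.7 to 231 FPKM in MUT, 207.9 to 212.2 in HET and 221 to 229 in WT. Taken singly, MUT and HET overlapped for each of the 7, as did HET and WT. For 1 of the 7, Pecam1, MUT (37.9 to 40.0 FPKM) lay below WT (42.4 to 45.6) without overlap. That state held for 1.92% of the 12984 loci with a mean of at least 1 FPKM. Macrophage markers, of interest because macrophages make TGFB1, overlapped between MUT (35.2 to 48.5 FPKM) and HET (47.6 to 52.3 FPKM). Their sum in HET lay above that in WT (33.3 to 44.4 FPKM) without overlap, while MUT and WT overlapped. Singly, HET was above WT without overlap for 2 of the 6, against 2.15% of all genes tested.

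Tgfb1 and Ltbp4 both lie on chromosome 7, and their upstream sequences are shown because these were the members with MUT wholly above HET. Tgfb1 spans chr7:25687002-25704996 on the plus strand and Ltbp4 chr7:27305141-27337612 on the minus strand (mm10), with 1.60 Mb between them. Of the 11 genes tested in that interval 5 were higher in MUT than in HET, their median log2 fold change was -0.01, and for none did the genotypes separate. The lines below give RefSeq sequence upstream of the start sites (build GRCm38.p6, the same assembly), 5′ to 3′ on the strand of the gene. Capitals mark GC boxes, the hexamer GGGCGG or its complement CCGCCC that SP-family factors can bind. The Tgfb1 line is chr7:25686752-25687001 (plus strand, 250 bases) and the Ltbp4 line chr7:27337693-27337862 (minus strand, 170 bases, ending ahead of the GENCODE start).
Tgfb1: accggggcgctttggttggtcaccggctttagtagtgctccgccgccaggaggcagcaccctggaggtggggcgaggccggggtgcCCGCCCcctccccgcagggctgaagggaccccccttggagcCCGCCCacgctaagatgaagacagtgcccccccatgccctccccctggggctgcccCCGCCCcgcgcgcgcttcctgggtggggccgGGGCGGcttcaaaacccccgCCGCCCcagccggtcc
Ltbp4: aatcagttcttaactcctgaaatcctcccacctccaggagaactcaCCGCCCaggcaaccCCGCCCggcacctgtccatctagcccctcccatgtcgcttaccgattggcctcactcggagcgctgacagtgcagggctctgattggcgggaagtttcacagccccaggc

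Windows of 250 bases before a RefSeq start were available for 8 members, 12 windows in all. A GC box was present in 6 of the 12 windows (those of Tgfb1, Ltbp2 and Ltbp4 and 1 of Tgfbr1), against 32.7% of all 32851 windows. The Tgfb1 window held 5 and had a GC content of 75.2%, above 96.1% of all windows. Ltbp4 had 3 annotated starts with 3, 7 and 5 GC boxes, and the windows of the last 2 largely overlap. The letters CAGACA or the complement TGTCTG, the core of a SMAD-binding CAGA element, were found in 3 of the 12 windows (1 each of Tgfb2, Tgfbr1 and Ltbp1), against 17.1% of all windows. The AP-1 element TGANTCA, in which N is any base, was found in 0 of the 12 windows, against 6.75% of all windows. These matches describe the letters and do not show binding.

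**Figure D5:**
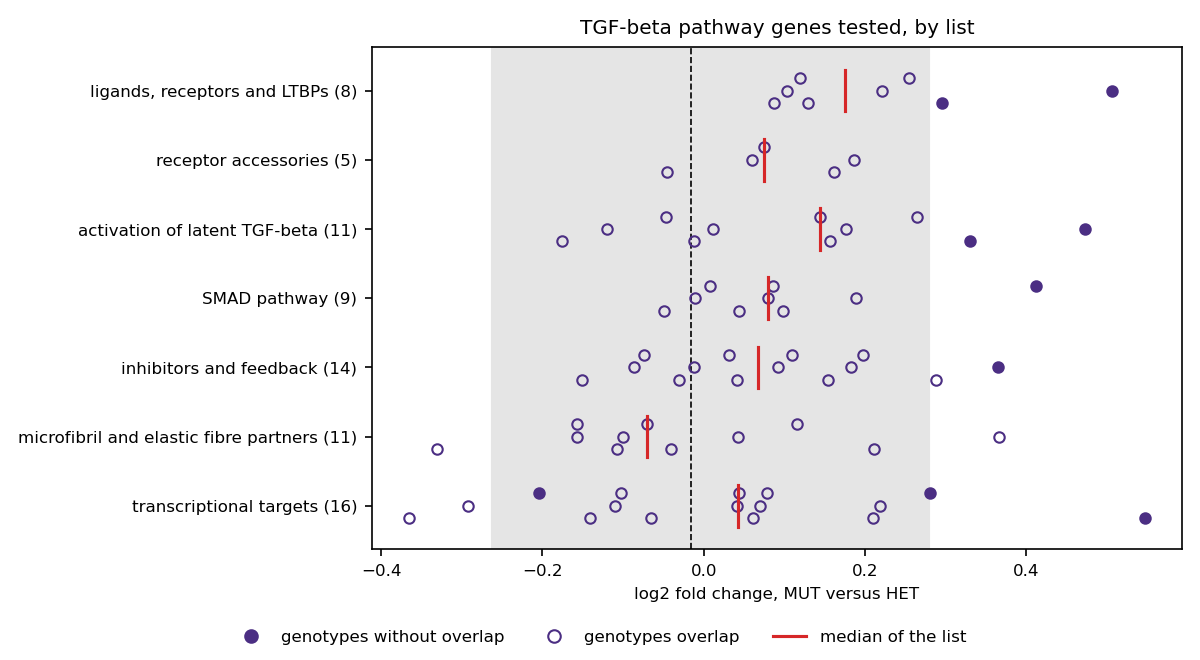
Log2 fold changes in MUT versus HET (x axis) for the TGF-beta genes and for 6 lists of other pathway genes (y axis, number tested in brackets); filled points are genes whose genotypes do not overlap, red lines are list medians, the dashed line is the median of all genes and the grey band their 5th to 95th percentile. The members' median is 0.18, and the 6 list medians run from -0.07 (microfibril and elastic fibre partners) to 0.14 (activation of latent TGF-beta).

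The rest of the pathway was followed in 6 lists of 76 genes, of which 66 were tested in MUT versus HET. By limma 0 of these were called (8 had an unadjusted p under 0.05), 40 were above 0 and 26 below it, against 45.9% of all genes above 0. Of the 66, 6 lay above without overlap, against 5.19% of all genes, and 1 below, against 4.5% of all genes, and their median was 0.04. In MUT versus WT 48 of 66 were above 0, against 48.7% of all genes, and in HET versus WT 35 of 65, against 52.4%, again with 0 called (0 and 3 unadjusted).

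Among the 11 genes tested in the list on activation of latent TGF-beta, which also covers its processing, 7 were above 0 in MUT versus HET (median 0.14). Furin, the protease that cleaves the propeptide, was 32.3, 31.6 and 24.1 FPKM in MUT and 22.2, 19.7 and 20.2 in HET, without overlap, with a log2 fold change of 0.47 (SE 0.13, limma adjusted p = 0.738). Mmp14, a membrane metalloprotease able to release the ligand, was 99.2, 89.6 and 93.8 FPKM in MUT and 71.7, 72.3 and 80.4 in HET, again without overlap, at 0.33 (SE 0.11, limma adjusted p = 0.738). Between MUT and WT both overlapped, with WT libraries at 19.3 to 31.3 FPKM for Furin and 62.3 to 90.9 FPKM for Mmp14.

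Of 5 receptor accessory genes 4 were above 0 (median 0.07) and none separated. In the SMAD list 7 of 9 were above 0 (median 0.08), and the coactivator Crebbp was 9.56, 6.68 and 6.41 FPKM in MUT and 4.72, 5.09 and 6.34 in HET, at 0.41 (SE 0.17, limma adjusted p = 0.738). Of the inhibitors 9 of 14 were above 0 (median 0.07), among them Ski, a SMAD corepressor, at 50.1, 45.1 and 35.0 FPKM in MUT and 32.0, 34.4 and 32.9 in HET (0.37, SE 0.14, limma adjusted p = 0.738). These genes separated MUT from HET while their highest WT library, WT-1, reached 9.77 FPKM for Crebbp and 47.9 FPKM for Ski.

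Transcriptional targets did not share a direction, with 9 of 16 above 0 and a median of 0.04. Col1a1, which encodes the alpha 1 chain of type I collagen, was 240, 214 and 232 FPKM in MUT, 153, 143 and 173 in HET and 210.1, 200.1 and 118 in WT. Its MUT libraries were above all others, at a log2 fold change of 0.55 against HET (SE 0.13, limma adjusted p = 0.738) and 0.42 against WT (SE 0.21, limma adjusted p = 1.00). Col1a2, the partner chain, was 254, 252 and 218 FPKM in MUT and 192, 211 and 191 in HET, at 0.28 (SE 0.13, limma adjusted p = 0.738). The early response gene Klf10 lay the other way, at 14.4, 14.7 and 15.2 FPKM in MUT and 16.7, 18.1 and 16.7 in HET (-0.20, SE 0.095, limma adjusted p = 0.738). Genes of microfibrils and elastic fibres, the structures LTBPs attach to, among them fibrillins, elastin, microfibril-associated proteins and the crosslinking enzyme Lox, had 4 of 11 above 0 and a median of -0.07, and none separated.

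The loci whose profile over the 9 libraries was most like each member were found by Pearson's r of log2(FPKM + 1) among 9978 loci with a mean of at least 5 FPKM. These r describe 9 libraries that share GC and length shifts, and the best of so many loci are high by selection. Nearest to Tgfb1 were Gnai2 (r = 0.95), Diap1 (0.94) and Hic1 (0.94), and among the 3 nearest to Tgfb3 were Lrrc20 (0.88) and Eln (0.86), the last encoding elastin. The receptor profiles were closest to Thap2, Dpy19l1 and Dsel for Tgfbr1 (0.98 to 0.99), to App, Nedd4l and Ube3b for Tgfbr2 (0.98) and to P3h2, Wipi1 and Tbcel for Tgfbr3 (0.97). Ltbp1 was closest to Ctdp1, Xpo6 and Plekhh1 (0.99), Ltbp3 to the joint locus Itpr3,Mir7677 (0.996) and to Mark2 and Prex1 (0.99 and 0.98), and Ltbp4 to C77080, Scarb1 and Phactr4 (0.99). Between members the highest r was 0.94, for Ltbp3 with Ltbp4, and the lowest -0.19, for Tgfbr1 with Ltbp1.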

How the data were processed

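Per the labels and the methods of the study, whole E15.5 kidneys were kept in RNAlater, RNA was extracted with TRIzol, and TruSeq Stranded mRNA libraries were sequenced on an Illumina NextSeq. The authors ran STAR against mm10, built merged transcript models (cufflinks, cuffmerge) and deposited FPKM computed by CuffDiff; versions, annotation and counting strand are not given in the sources used here. The deposited columns of genotype means were not used. From the FPKM, log2(FPKM + 1) was tested with limma 3.58.1 in R 4.3.3 (moderated, with a trend, two-sided), fitting only the 2 genotypes compared, over genes that averaged 5 FPKM or more in at least 1 of them, with Benjamini-Hochberg adjustment and a threshold of 0.05. The code was tested on simulated data. Named genes were the members, Ntn1, Foxd1, up to 3 genes a list with the largest separated MUT versus HET difference, and the 3 loci most like each member, of which 1 is not reported here. GC content and length came from the longest protein-coding transcript in GENCODE M21. Members and lists were chosen with earlier results of these data known. Libraries are single kidneys, so p-values measure the spread between libraries. Kidney, cross and library preparation cannot be told apart in that spread. Library numbers were checked for pairing by correlating deviations from the genotype means. Alternatives covered pseudocount, minimum, rescaling, GC and length correction, the replicate block and leaving out each library.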

Additional observations from a re-analysis of the deposited data

How the results depend on the processing

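Each of the 8 members was refitted in each comparison under other pseudocounts, minimums, rescalings, fits and corrections and without each library, and Tgfb2 and Ltbp2 under the lower minimums; of 441 member values 415 kept their direction, 26 changed sign and none passed the adjusted threshold. The lower minimums, the joint fit of all libraries, the replicate block and the fit without a trend cannot move a log2 fold change. Adding the block to the GC correction likewise repeats the value of that correction. Agreement under these settings was fixed in advance, so the count of kept directions is no measure of stability. Outside the omission of a library the values that changed sign stayed within 0.09 of 0. The largest was that of Tgfbr2 in HET versus WT, which was -0.025 in the main fit. GC and length correction gave -0.0055 for Tgfbr2 and -0.012 for Ltbp1 in MUT versus HET and 0.088 for Tgfbr2 in HET versus WT. In MUT versus WT, Tgfbr3 became 0.0096 with median-ratio rescaling, 0.021 with GC correction and 0.021 with the replicate block and GC correction. GC correction, with or without the block, gave -0.00066 for Ltbp1 in HET versus WT and left 1 of 8 members higher there. Leaving out 1 library, genes called ranged from 0 to 3 in each comparison, none of them a member, and members higher from 3 to 8 of 8 in MUT versus WT and from 0 to 4 in HET versus WT. The log2 fold changes then ranged in MUT versus HET from -0.015 to 0.17 for Tgfb3 and from -0.057 to 0.20 for Ltbp1. In MUT versus WT they ranged from -0.036 to 0.29 for Tgfbr1, -0.0067 to 0.21 for Tgfbr2, -0.070 to 0.085 for Tgfbr3, -0.067 to 0.26 for Ltbp1, -0.0090 to 0.29 for Ltbp3 and -0.042 to 0.43 for Ltbp4. In HET versus WT they ranged from -0.078 to 0.17 for Tgfb3, -0.13 to 0.093 for Tgfbr2, -0.15 to 0.18 for Ltbp1 and -0.23 to 0.070 for Ltbp3. The causes were not tested.

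Same-numbered libraries did not deviate together on average (mean r = -0.13 in MUT versus HET, 0.086 in MUT versus WT and -0.031 in HET versus WT). In MUT versus WT the r was 0.55 for number 1, -0.26 for number 2 and -0.03 for number 3. With 3 libraries a genotype these r cannot settle whether equal numbers share a cross. The methods state no pairing, so the main fits do not treat the numbers as pairs. With the replicate block 0 genes were called in each comparison, and the genes with an unadjusted limma p under 0.05 were 494 instead of 636, 201 instead of 65 and 233 instead of 108. At 3 libraries a genotype the smallest 95% interval for a member in MUT versus HET, that of Tgfb1, ran from 0.08 to 0.51, and with unknown depth the share of counting error in these intervals is unknown.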

Other observations

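Of the contractile genes tested among the TGF-beta targets, described here after their values were seen, Acta2, Myl9 and Tagln each had a lower mean in MUT than in HET, and none passed the test. Cnn1, also contractile and on that list, was under the 5 FPKM minimum and not tested. It was 2.42, 2.54 and 2.95 FPKM in MUT, 3.74, 4.81 and 3.47 in HET and 2.28, 1.92 and 3.15 in WT. Its MUT libraries lay below all HET libraries. Acta2, the smooth muscle actin of mural cells and myofibroblasts, was 52.4, 67.6 and 59.96 FPKM in MUT, 72.7, 94.98 and 66.6 in HET and 57.6, 54.7 and 72.1 in WT. MUT-2 lay above HET-3, so the genotypes overlapped, and the log2 fold change in MUT versus HET was -0.37 (SE 0.15, limma adjusted p = 0.738). Myl9, the smooth muscle myosin light chain, was 91.6, 113 and 126 FPKM in MUT and 133, 157 and 116 in HET, with a log2 fold change of -0.29 (SE 0.16, limma adjusted p = 0.738). Its WT libraries were at 94.4, 123 and 127 FPKM. For both genes HET-2, the library with liver transcripts, was the highest of the 9. Tagln, which encodes the actin-binding transgelin, was 31.2, 52.1 and 34.7 FPKM in MUT and 42.6, 48.6 and 33.9 in HET, with a log2 fold change of -0.10 (SE 0.19, limma adjusted p = 0.898), and its highest library was MUT-2. Its WT libraries were at 36.8, 36.3 and 41.5 FPKM.

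Mfap4, a microfibril protein that binds elastin and was also chosen after its values were seen, was 102, 119 and 109.9 FPKM in HET, above each WT library (69.2, 95.001 and 93.3), with a log2 fold change of 0.37 in HET versus WT (SE 0.15, limma adjusted p = 0.998). HET lay above WT without overlap for 2.15% of all genes tested. In MUT Mfap4 was 84.3, 74.4 and 107 FPKM, which overlapped both other genotypes. Its log2 fold change in MUT versus HET was -0.33 (SE 0.15, limma adjusted p = 0.738). None of these differences passed the test.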
